A study of Mus musculus with 8 samples.

Results

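The B cell receptor and identity genes are 9 mouse genes, Cd79a, Cd79b, Ms4a1, Pax5, Cd22, Blk, Bank1, Cr2 and Fcer2a, taken by symbol from a list of genes that B cells are known for. The rule uses no measured value, but the genes were proposed with earlier results of these data known. All 9 had a row in the table of 18824 genes, and all 9 passed the filter on low counts, which left 14746 genes for testing. Expression was measured by bulk RNA sequencing of lung in a series on the role of SLC15A3, an endolysosomal transporter of histidine and peptides, in pulmonary fibrosis. The 4 libraries of WT_BLM came from lung of wild-type mice and the 4 of KO_BLM from lung of mice labelled Slc15a3-/-. Both groups were given bleomycin (BLM), a DNA-breaking drug that scars rodent lung, into the trachea at 2 mg/kg in 50 µl of saline. The mice were 8 weeks old, and lungs were taken on day 21. Each value compares the genotypes after bleomycin only, as mice given saline are not analysed here. The labels give neither the strain background nor the design of the knockout allele, and they do not state that each library is a separate animal. The p-values therefore measure the spread between these libraries, which may be technical.

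A B cell reads antigen through its receptor, a membrane immunoglobulin held by the signalling chains CD79A and CD79B. Src-family kinases such as BLK phosphorylate these chains, adapters such as BANK1 pass the signal on, and the sialic acid-binding protein CD22 recruits phosphatases that damp it. PAX5 is the transcription factor that commits and holds cells to the B lineage, and CD20 (from Ms4a1), complement receptor CR2 and the low-affinity IgE receptor FCER2A mark mature B cells. In lung, B cells are a minor population of the healthy tissue and gather in lymphoid aggregates under chronic inflammation.

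The WT_BLM libraries held 18878835 to 20180831 counts each and the KO_BLM libraries 17627999 to 18471445, so the groups differed in depth without overlap. Levels are therefore given as CPM, which set a gene's counts against the TMM-scaled total of its library. Slc15a3, the targeted gene, was at 51.3 ± 4.11 CPM in WT_BLM and 0.610 ± 0.303 CPM in KO_BLM (mean ± SD, n = 4 each), and no library of one group came near the other. The labels name no batch, so a difference in handling between the groups cannot be told apart from the genotype. In bulk lung, more B cells and more RNA per B cell cannot be told apart either.

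All 9 genes were higher in KO_BLM than in WT_BLM at an adjusted p under 0.05 (edgeR's quasi-likelihood test, Benjamini-Hochberg over all tested genes), where 20.7% of all tested genes were called higher and 41.5% in either direction. In all 9 the lowest KO_BLM library lay above the highest WT_BLM library, which held in this direction for 20.3% of all tested genes. Fold changes ran from 1.76 for Cd22 to 4.86 for Cr2, and the median log2 fold change of the 9 was 1.67, against 0.0025 over all tested genes. Ranked among all tested genes, the 9 log2 fold changes stood at percentiles 89.7 to 99.4. On library totals without TMM, 62.7% of all calls were higher in KO_BLM in place of 50.0%, and the 9 genes were called higher there too. The direction held for every member under all 18 alternative fits in which it had a value. The plot of the members by library shows each value.

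**Figure D1:**
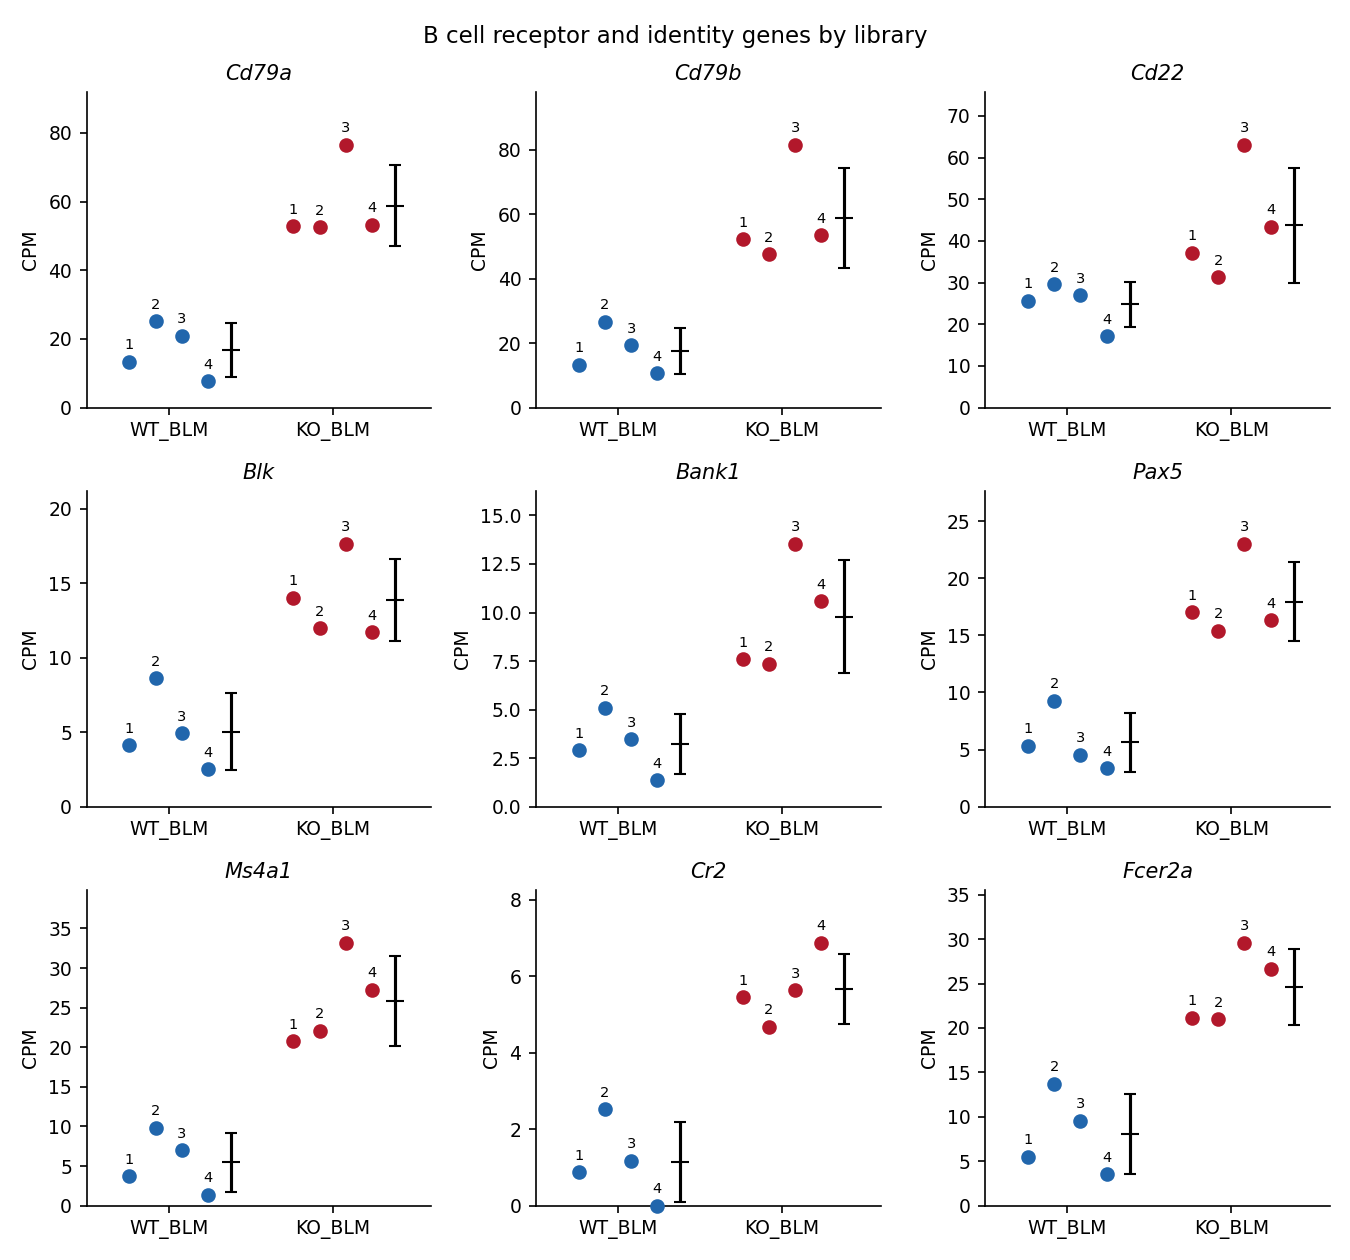
CPM of each of the 9 genes (y axis, linear from 0) in the 4 WT_BLM and 4 KO_BLM libraries (points, numbered by replicate), with the mean and SD of each group beside them. In each panel the KO_BLM points lie above all WT_BLM points, closest in Cd22 (31.3 against 29.6 CPM) and with Cr2 at 0 in 1 WT_BLM library.

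The signalling chains of the receptor had the highest CPM of the 9 genes in KO_BLM. Cd79a (NCBI gene 12518, chr7:24897497-24901858, GRCm38) was at 13.4, 25.1, 21.0 and 7.73 CPM in WT_BLM replicates 1 to 4 and at 52.9, 52.5, 76.6 and 53.2 CPM in KO_BLM replicates 1 to 4. The lowest knockout library was thus well above the highest wild-type one, and replicate 3 stood out among the knockouts. The means were 16.8 ± 7.76 and 58.8 ± 11.9 CPM, a log2 fold change of 1.80 ± 0.31 (SE) or 3.49-fold (adjusted p = 0.00168). Cd79b (15985, chr11:106311341-106314562) was at 13.4, 26.7, 19.3 and 10.7 CPM in WT_BLM and at 52.3, 47.5, 81.6 and 53.6 CPM in KO_BLM. Its libraries kept nearly the order of Cd79a, with replicate 2 highest in the wild type and replicate 3 highest in the knockout. The log2 fold change was 1.74 ± 0.28, or 3.35-fold (adjusted p = 0.0012). The count ratio of Cd79b to Cd79a within a library differed by -0.12 ± 0.13 (SE) on the log2 scale between KO_BLM and WT_BLM (two-sided exact permutation p = 0.457), so a difference in how far the 2 chains moved was not detectable.

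Since the 9 genes moved together, the sequence before their starts is shown for members with an entry in RefSeq's promoter table (GRCm38.p6), which held windows for 6 of the 9 genes, 8 windows in all. The stretches, apart from that of Cr2 as stated below, are the parts outside annotated exons of the 250 bases before a start. All are written 5′ to 3′ on the gene's strand. Capitals mark matches to 2 motifs of early B cell regulators, the E-box CAGGTG or CACCTG on the other strand (bound by E proteins such as E2A) and the EBF1 palindrome, TCCC and GGGA with any 2 bases between.
Cd79a, chr7:24897247-24897380, plus strand: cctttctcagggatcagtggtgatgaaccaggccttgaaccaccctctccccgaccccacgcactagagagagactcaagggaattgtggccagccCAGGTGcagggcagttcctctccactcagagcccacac
Cd22, chr7:30879029-30879176, minus strand: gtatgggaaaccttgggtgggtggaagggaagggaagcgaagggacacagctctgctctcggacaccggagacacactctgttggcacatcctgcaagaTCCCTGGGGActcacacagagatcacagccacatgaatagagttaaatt
Cr2, chr1:195176720-195176969, minus strand: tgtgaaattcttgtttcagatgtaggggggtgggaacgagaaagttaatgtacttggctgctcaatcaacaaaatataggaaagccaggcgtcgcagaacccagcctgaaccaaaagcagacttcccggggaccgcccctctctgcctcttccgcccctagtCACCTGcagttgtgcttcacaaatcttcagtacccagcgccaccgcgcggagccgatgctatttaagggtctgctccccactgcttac
Fcer2a, chr8:3694176-3694424, minus strand: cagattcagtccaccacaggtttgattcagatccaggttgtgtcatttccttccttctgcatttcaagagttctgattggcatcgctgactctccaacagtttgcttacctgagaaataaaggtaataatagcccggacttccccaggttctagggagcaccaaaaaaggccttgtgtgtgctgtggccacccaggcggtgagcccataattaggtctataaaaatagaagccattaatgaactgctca
The E-box of Cd79a began 154 bases before its start, that of Cr2 88 bases and the EBF1 motif of Cd22 49 bases before theirs. The starts used for Cr2 and Cd22 lie inside the genes by the coordinates given here. The Cr2 stretch spans the outer end of that gene (195176880), so by those coordinates it is not wholly outside exons. The Fcer2a stretch held neither motif, though another Fcer2a window held an E-box. Cd22 also had an E-box, 245 bases before its start and outside the printed stretch, and so did a Bank1 window. Of all 32851 windows in the table, 17.2% held the E-box in the 250 bases before the start and 0.779% the EBF1 motif, against 5 and 1 of the 8 member windows. A core of the ETS family, AGGAAGT, was in 1 member window (Cd79a, nearer to its start than the printed stretch) and in 7.69% of all windows, and the octamer ATGCAAAT in 0 and 1.60%. A match is a run of letters, not a measured binding site, and some of these windows belong to 1 gene and overlap.

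The members that relay the signal, Blk and Bank1, were 2.74-fold and 3.03-fold higher, and Cd22, which damps it, 1.76-fold. Blk (12143, chr14:63372837-63417187), the Src-family kinase, was at 4.12, 8.63, 4.93 and 2.51 CPM in WT_BLM and at 14.1, 12.0, 17.7 and 11.7 CPM in KO_BLM, without overlap. Its log2 fold change was 1.45 ± 0.32, or 2.74-fold (adjusted p = 0.00576). The adapter Bank1 (242248, chr3:136053363-136326141) was at 2.91, 5.11, 3.48 and 1.36 CPM in WT_BLM and at 7.60, 7.37, 13.6 and 10.6 CPM in KO_BLM. The groups again did not overlap, and the log2 fold change was 1.60 ± 0.35, or 3.03-fold (adjusted p = 0.00592).

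Cd22 (12483, chr7:30865404-30880342), the inhibitory co-receptor, was at 25.7, 29.6, 27.0 and 17.1 CPM in WT_BLM and at 37.1, 31.3, 63.1 and 43.4 CPM in KO_BLM. It had the highest CPM of the 9 in WT_BLM, and its groups were separated by the smallest step, KO_BLM replicate 2 lying just above WT_BLM replicate 2. Its log2 fold change of 0.82 ± 0.23, or 1.76-fold, was the smallest of the 9 (adjusted p = 0.017). With limma-voom and library quality weights it was 0.48 and did not pass (adjusted p = 0.0594; range over the alternatives 0.0024 to 0.0594).

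Pax5 (18507, chr4:44524748-44710694), the lineage factor, was at 5.33, 9.27, 4.55 and 3.38 CPM in WT_BLM and at 17.02, 15.4, 23.0 and 16.3 CPM in KO_BLM. All 4 knockout libraries lay above all wild-type libraries, and 3 of them close to each other. The log2 fold change was 1.67 ± 0.28, or 3.17-fold (adjusted p = 0.00157).

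The mature B cell surface markers included the members with the largest fold changes. Ms4a1 (12482, chr19:11249679-11266149), which encodes CD20, was at 3.68, 9.82, 7.02 and 1.36 CPM in WT_BLM and at 20.8, 22.1, 33.2 and 27.3 CPM in KO_BLM. The wild-type libraries differed among themselves more than the knockout libraries did in proportion, yet none reached the lowest knockout. Its log2 fold change was 2.23 ± 0.44, or 4.70-fold (adjusted p = 0.00367). Cr2 (12902, chr1:195136811-195176880), which encodes complement receptor 2, had 16, 51, 22 and 0 counts in WT_BLM and 99, 84, 108 and 132 counts in KO_BLM. That is 0.880, 2.53, 1.18 and 0 CPM against 5.45, 4.69, 5.63 and 6.88 CPM. Replicate 2 held most of the wild-type counts, and replicate 4 held none, which allows up to 0.163 CPM (3 counts, counting error only). The log2 fold change of Cr2 was 2.28 ± 0.62, or 4.86-fold (adjusted p = 0.0157), and it was 8.16-fold without WT_BLM replicate 2. Fcer2a (14128, chr8:3680280-3694174), which encodes CD23, was at 5.50, 13.7, 9.54 and 3.54 CPM in WT_BLM and at 21.2, 21.0, 29.6 and 26.7 CPM in KO_BLM. Its groups did not overlap, and the log2 fold change was 1.60 ± 0.34, or 3.04-fold (adjusted p = 0.00535).

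Ms4a1 lies on chromosome 19 as Slc15a3 does (chr19:10842544-10857915), 391.8 kb away, within a cluster of Ms4a genes. Of the 16 Ms4a genes listed beside Ms4a1, 14 were in the table and 10 were tested. Of these 10, 3 were higher and 5 lower in KO_BLM (median log2 fold change -0.59), where 20.7% of all tested genes were higher and 20.8% lower. The family did not move in 1 direction, and called genes were a larger share of it than of all tested genes (41.5%). What part the place near Slc15a3 has was not tested. Ms4a4b, known from T cells, was at 4.35 ± 2.17 CPM in WT_BLM and 23.9 ± 10.1 CPM in KO_BLM (log2 fold change 2.45 ± 0.38, adjusted p = 0.00109), and Ms4a4d was higher by 1.01 ± 0.17 (adjusted p = 0.00154). Ms4a4a fell by 1.80 on the log2 scale (SE 0.21, adjusted p = 0.000216) and Ms4a6d by 1.73 (SE 0.27, adjusted p = 0.00117), from 69.8 ± 3.64 to 20.9 ± 9.44 CPM. Ms4a6c fell by 1.04 (SE 0.19, adjusted p = 0.0025). Ms4a2, Ms4a5, Ms4a10 and Ms4a15 were too low to test. The calls of Ms4a4c (higher), Ms4a7 and Ms4a8a (lower) were each lost under some alternatives, that of Ms4a4c when any library other than WT_BLM replicate 2 was left out.

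Compared per length, on the deposited FPKM, the order of the levels was nearly the same in both groups. In WT_BLM it ran from Cd79a (16.4 ± 7.97) and Cd79b (13.9 ± 6.03) through Cd22 (5.30 ± 1.28), Fcer2a (2.08 ± 1.21), Blk (2.00 ± 1.08), Ms4a1 (1.81 ± 1.26), Bank1 (0.898 ± 0.452) and Pax5 (0.670 ± 0.320) to Cr2 (0.164 ± 0.152 FPKM; SD, n = 4). In KO_BLM Cd79a was at 60.5 ± 12.7 and Cd79b at 49.3 ± 13.4 FPKM, followed by Cd22 (9.89 ± 3.25), Ms4a1 (8.96 ± 2.11), Fcer2a (6.66 ± 1.28), Blk (5.77 ± 1.15), Bank1 (2.88 ± 0.904), Pax5 (2.25 ± 0.449) and Cr2 (0.846 ± 0.156). Of neighbours in this order, Cd79b and Cd22 did not overlap in either group, nor did Pax5 and Cr2, and Blk and Bank1 did not overlap in KO_BLM. The ranges of all other neighbours overlapped between libraries. Within each of the 4 libraries of a group, however, Cd22 was above Fcer2a and Ms4a1 above Bank1 in WT_BLM, and Cd79a above Cd79b, Ms4a1 above Fcer2a and Bank1 above Pax5 in KO_BLM. The remaining neighbours changed order between libraries. By its mean, Ms4a1 ranked below Fcer2a and Blk in WT_BLM and above both in KO_BLM.

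Within each group the 9 genes varied together. WT_BLM replicate 2 was the highest of its group for all 9 genes and replicate 4 the lowest for all 9. In KO_BLM replicate 3 was highest for 8 genes and replicate 4 for Cr2. Summed over the 9 genes, WT_BLM replicates 1 to 4 held 74.8, 130.5, 98.0 and 47.7 CPM and KO_BLM replicates 1 to 4 held 228.4, 213.8, 344.1 and 249.6 CPM. The highest library was thus well above the lowest within each genotype, but no WT_BLM sum came near a KO_BLM one. The coefficient of variation was 21.8 to 91.4% in WT_BLM and 16.1 to 31.7% in KO_BLM, and larger in WT_BLM for all members other than Cd22. Over the 8 libraries, the deviations of log2 CPM from the group means had a Pearson r of 0.67 to 0.98 for the 36 pairs of members. Cd22 had the lowest mean r with the others (0.78). These are descriptions, since all genes of a library share its tissue sample and its scaling.

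**Figure D2:**
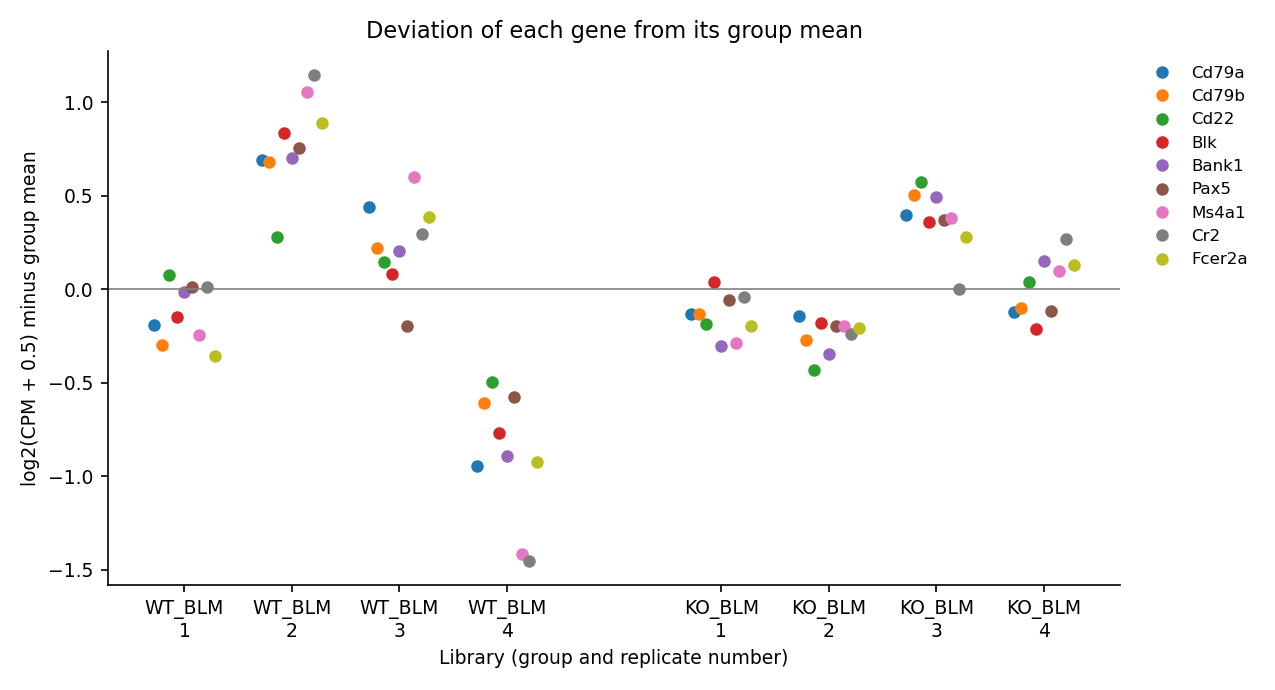
Deviation of log2(CPM + 0.5) from the group mean (y axis) of each of the 9 genes (points coloured by gene) in each of the 8 libraries (x axis). Replicate 2 of WT_BLM is the highest and replicate 4 the lowest of its group for all 9 genes, and replicate 3 is the highest in KO_BLM for 8 of them.

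The libraries that were highest and lowest in WT_BLM were so for Ptprc and Cd3e too. Ptprc, the pan-leukocyte CD45, was at 66.4, 92.9, 74.5 and 57.6 CPM in WT_BLM and at 95.6, 108, 140 and 141 CPM in KO_BLM. Its groups did not overlap, and its log2 fold change was 0.73 ± 0.17, or 1.66-fold (adjusted p = 0.00746). Ptprc was, however, the only 1 of 6 listed pan-leukocyte genes called higher, while 1 was lower and 4 were not called. The median log2 fold change of the 6 was -0.01, and their summed level was 810 to 1123 CPM in WT_BLM and 669.5 to 1119 CPM in KO_BLM. A ratio to Ptprc is thus a ratio to that gene, not to all leukocyte RNA. The T cell gene Cd3e was at 2.64, 5.50, 4.71 and 1.91 CPM in WT_BLM and at 7.49, 10.04, 15.1 and 7.04 CPM in KO_BLM, with the same highest and lowest library in WT_BLM and the same highest in KO_BLM as most members. What part the higher level of Ptprc and Cd3e has in the members' differences was not tested.

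Ratios of counts within a library do not depend on scaling between libraries, and 17 were compared (8 members to Cd79a, 9 members to Ptprc), each by a two-sided exact permutation test over all 70 ways to assign the libraries, which cannot give a p below 0.0286. None passed at 0.05 after Benjamini-Hochberg adjustment over the 17, and 9 reached an unadjusted exact p of 0.0286 (adjusted p = 0.054). Of these, 7 were ratios to Ptprc. Cd79a counts were 20.2, 27.0, 28.2 and 13.5% of Ptprc counts in WT_BLM and 55.3, 48.6, 54.8 and 37.9% in KO_BLM, a log2 difference of 1.19 without overlap. The differences of the other 6 were 0.96 for Bank1, 1.01 for Pax5, 1.04 for Fcer2a, 1.06 for Cd79b, 1.81 for Ms4a1 and 2.69 for Cr2. The value for Cr2 depends on the 0.5 added to the 0 counts of WT_BLM replicate 4, and it was 1.37 without that library and 3.33 without WT_BLM replicate 2. Blk overlapped at 0.84 (exact permutation p = 0.0571). Cd22 counts were 38.7, 31.9, 36.2 and 29.7% of Ptprc counts in WT_BLM and 38.9, 28.9, 45.2 and 30.9% in KO_BLM. This ratio overlapped throughout and differed by 0.06 ± 0.17 (SE; exact permutation p = 0.771), so Cd22 did not detectably differ from Ptprc in its rise.

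Against Cd79a, the other 2 of the 9 stood out in opposite directions. Cd22 counts were 192, 118, 128 and 221% of Cd79a counts in WT_BLM and 70.2, 59.5, 82.4 and 81.5% in KO_BLM, a log2 difference of -1.13 ± 0.25 without overlap. Ms4a1 counts were 27.7, 39.2, 33.5 and 17.9% of Cd79a counts in WT_BLM and 39.3, 42.1, 43.4 and 51.2% in KO_BLM, a difference of 0.62 ± 0.26, with WT_BLM replicate 2 and KO_BLM replicate 1 nearly touching. Both had an exact permutation p of 0.0286 (adjusted p = 0.054). For Blk (-0.35), Bank1 (-0.23), Pax5 (-0.17), Fcer2a (-0.15) and Cr2 (1.50 ± 1.12) the groups overlapped, and that of Cr2 was 0.40 without WT_BLM replicate 4 and 2.02 without replicate 2. Without WT_BLM replicate 2, 10 of the 17 ratios passed after adjustment, and without WT_BLM replicate 3, 11 passed. Because the exact p has a lower limit, a ratio can pass only when many of the 17 reach that limit together. The number that passed is therefore no measure of any single ratio.

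**Figure D3:**
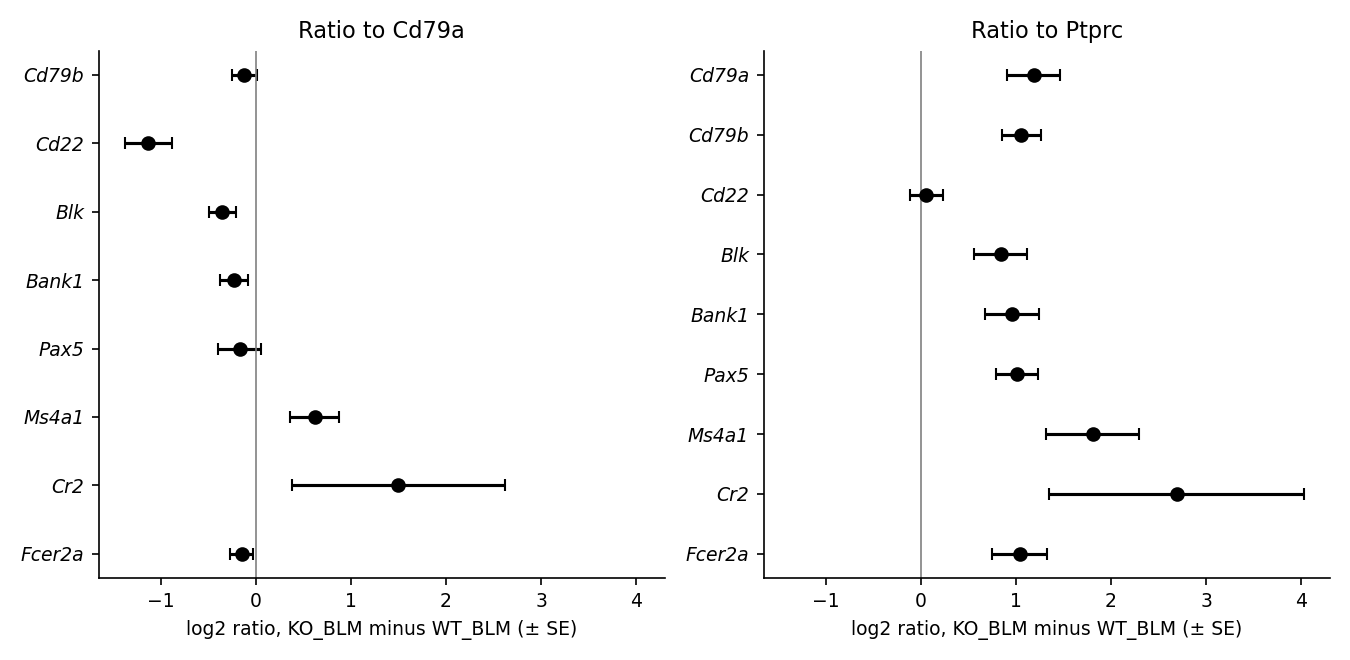
Log2 difference between KO_BLM and WT_BLM in the count ratio of each member to Cd79a and to Ptprc (points, mean difference; bars, SE), with a line at 0. Cd22 lies at -1.13 against Cd79a and at 0.06 against Ptprc, while Ms4a1 lies at 0.62 and 1.81.

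Other genes that act at the receptor moved in both directions. In a list of 20 genes of proximal signalling, 2 were higher and 4 lower in KO_BLM, with a median log2 fold change of 0.00, where 20.7% of all tested genes were higher and 20.8% lower. Rasgrp3, an activator of RAS, was higher by 0.84 ± 0.15 (adjusted p = 0.00223). The inhibitory Fc receptor Fcgr2b, which B cells share with macrophages and endothelium, was at 143, 156, 152 and 126 CPM in WT_BLM and at 30.4, 37.1, 68.9 and 70.03 CPM in KO_BLM. It fell by 1.49 (SE 0.25, adjusted p = 0.00165), with the 2 groups far apart. The adapters Bcl10 and Dok3 fell by 0.50 (SE 0.10, adjusted p = 0.00347) and 0.46 (SE 0.10, adjusted p = 0.00593), and the phosphatase Inpp5d by 0.38 (SE 0.12, adjusted p = 0.0252), whose call was lost without WT_BLM replicate 1 or 3. The kinases Syk (-0.22, adjusted p = 0.212) and Btk (-0.03, adjusted p = 0.936) did not pass, and many of these genes are also used by myeloid cells.

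The deposited annotation places Cd79a, Cd79b, Cd22 and Cr2 in the KEGG B cell receptor signaling pathway. Of its 76 tested genes, 8 were higher and 15 lower (median log2 fold change -0.04), where 20.7% of all tested genes were higher and 20.8% lower. Without the 4 members, 4 of 72 were higher and 15 lower (-0.06).

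Of 15 lineage transcription factors, 4 were higher and 1 was lower, with a median of 0.38 (all tested genes, 20.7% higher and 20.8% lower). Spib, an ETS factor of B cells and plasmacytoid dendritic cells, was at 6.82 ± 4.76 CPM in WT_BLM and 21.4 ± 5.89 CPM in KO_BLM (log2 fold change 1.65 ± 0.46, adjusted p = 0.018), a call lost without WT_BLM replicate 1 (adjusted p = 0.0512; range over the alternatives 0.00538 to 0.0512). Ikzf3 (Aiolos, of maturing lymphocytes) was higher by 1.33 ± 0.23 (adjusted p = 0.00194), Bach2, which holds back plasma cell differentiation, by 0.57 ± 0.12 (adjusted p = 0.00429) and Ets1 by 0.43 ± 0.12 (adjusted p = 0.0184). Ets1, at 191 ± 32.4 CPM in WT_BLM and 258 ± 19.4 CPM in KO_BLM, overlapped between the groups, and which cells its RNA came from was not tested. Spi1 (PU.1), which is highest in myeloid cells, fell by 0.62 (SE 0.16, adjusted p = 0.013). Ebf1, which works with PAX5 but is also expressed by stromal cells, was at 9.37 CPM in WT_BLM and 10.8 CPM in KO_BLM (0.21 ± 0.19, adjusted p = 0.397). Without WT_BLM replicate 2, 7 of the 15 factors were higher.

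Among 21 tested genes of the B cell surface and cytoplasm outside the 9, 13 were higher and 0 lower, with a median log2 fold change of 0.94. Of all tested genes, 20.7% were higher and 20.8% lower. The follicle-homing chemokine receptor Cxcr5 was at 2.31, 7.24, 4.29 and 1.74 CPM in WT_BLM and at 11.6, 10.8, 15.01 and 12.2 CPM in KO_BLM (1.66 ± 0.37, adjusted p = 0.00644). Its libraries repeat the order seen in the members, with wild-type replicate 2 highest and replicate 4 lowest. H2-Ob, which tunes MHC class II loading in B cells, was higher by 1.84 ± 0.39 (adjusted p = 0.00486), the IgM receptor Fcmr by 1.68 ± 0.36 (adjusted p = 0.00511) and Vpreb3 by 1.51 ± 0.27 (adjusted p = 0.00201). The Fc receptor-like genes Fcrl1 (1.39 ± 0.31, adjusted p = 0.00684) and Fcrla (1.40 ± 0.35, adjusted p = 0.0112) and the BAFF receptor Tnfrsf13c (1.37 ± 0.35, adjusted p = 0.0118) were also higher. The other 8 of the 21 did not pass. Among them were Cd72 (-0.18, adjusted p = 0.746) and Cd180 (-0.05, adjusted p = 0.898), which myeloid cells also express. The rest were Cd37 (0.54, adjusted p = 0.0502), Cd24a (0.38, adjusted p = 0.0755) and H2-DMb2 (0.67, adjusted p = 0.2015). Ccr6 (0.78, adjusted p = 0.257), Tnfrsf13b (0.31, adjusted p = 0.3165) and Tlr9 (0.26, adjusted p = 0.582) complete them.

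**Figure D4:**
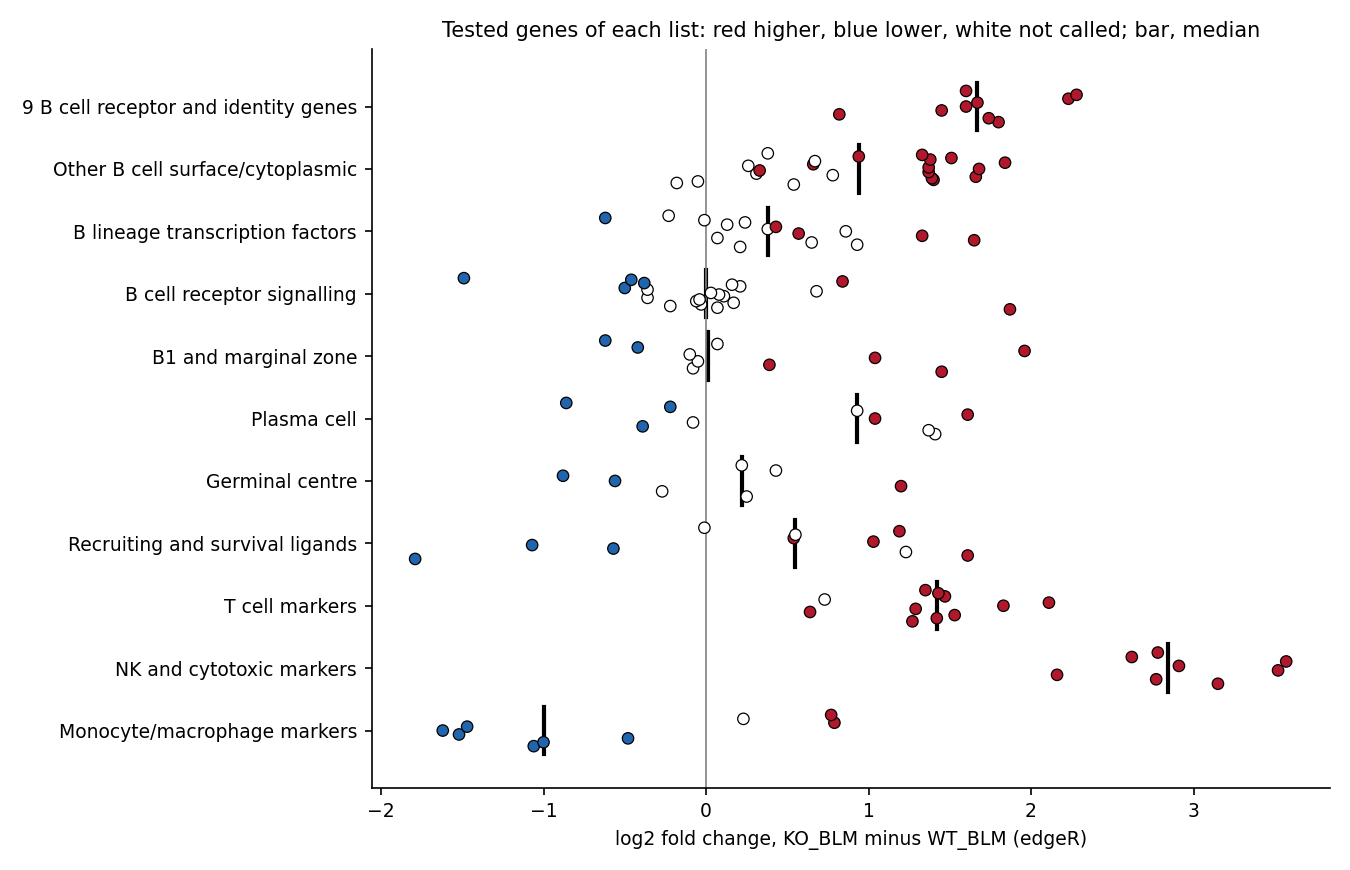
Log2 fold change of KO_BLM over WT_BLM (x axis) of each tested gene (points) in lists of B cell genes and of T cell, NK cell and macrophage markers. Red points were called higher by edgeR, blue points lower and white points not called, and a bar marks each median. The 9 receptor and identity genes lie between 0.82 and 2.28, while the proximal signalling genes lie on both sides of 0.

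Genes of later B cell stages moved in both directions. Of 9 tested plasma cell genes, 2 were higher and 3 lower (median 0.93), where 20.7% of all tested genes were higher and 20.8% lower. With so few genes these counts are not told apart from that share. The joining chain gene Jchain was at 52.2, 64.9, 393 and 165 CPM in WT_BLM and at 40.0, 364, 438 and 953 CPM in KO_BLM. It overlapped between the groups and did not pass (1.41 ± 0.87, adjusted p = 0.216), and its fold of 2.66 was 4.76 without WT_BLM replicate 3 and 1.66 without KO_BLM replicate 4. In WT_BLM it was highest in replicate 3, where no member was highest, and in KO_BLM in replicate 4, as Cr2 was. Prdm1 (Blimp-1), also used by T and NK cells, was higher by 1.04 ± 0.12 (adjusted p = 0.000215), and Fkbp11 fell by 0.86 (SE 0.19, adjusted p = 0.00675). The calls of Tnfrsf17 (higher), Sdc1 and Txndc5 (lower) were each lost in several leave-one-out fits. Sdc1 and Txndc5 were at 394 ± 50.7 and 298 ± 7.1 CPM in WT_BLM, against 0.455 ± 0.296 CPM for Tnfrsf17. Which cells their RNA came from was not tested. Like Jchain, Mzb1 (1.37 ± 0.51, adjusted p = 0.0542) and Derl3 (0.93 ± 0.58, adjusted p = 0.216) did not pass. Nor did Xbp1 (-0.08 ± 0.13, adjusted p = 0.6225). Immunoglobulin constant genes were not analysed here. Of 10 germinal centre genes, 7 were tested, with Gcsam higher by 1.20 ± 0.38 (adjusted p = 0.0308) and Fas (-0.56 ± 0.13, adjusted p = 0.0063) and Basp1 (-0.88 ± 0.27, adjusted p = 0.0264) lower. The calls of Gcsam and Basp1 were each lost without WT_BLM replicate 1 or 3 or KO_BLM replicate 2, and that of Gcsam also without KO_BLM replicate 3 or 4. Rgs13 and Mef2b were among those too low to test.

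A list of 10 genes of B1 and marginal zone B cells had 4 higher and 2 lower (median 0.01), beside 20.7% and 20.8% of all tested genes. Dtx1, a NOTCH regulator of marginal zone cells, was higher by 1.96 ± 0.32 (adjusted p = 0.00129), Cd5, shared with T cells, by 1.45 ± 0.37 (adjusted p = 0.0121) and Zbtb32 by 1.04 ± 0.19 (adjusted p = 0.0022). Cd5 (chr19:10718107-10739026) lies nearer to Slc15a3 than Ms4a1 does, and what part that place has was not tested. Notch2 (-0.42 ± 0.10, adjusted p = 0.00755) and S1pr3 (-0.62 ± 0.14, adjusted p = 0.00672), both also expressed outside B cells, were lower. The call of Cd1d1 (higher) was lost in most leave-one-out fits.

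The ligands that draw and keep B cells moved in both directions. Of 10 tested, 4 were higher and 3 lower (median 0.55), beside 20.7% and 20.8% of all tested genes. Cxcl13, the ligand of CXCR5, was at 18.2, 23.5, 26.1 and 21.1 CPM in WT_BLM and at 4.63, 5.36, 6.83 and 8.87 CPM in KO_BLM. All knockout libraries lay below all wild-type libraries, the opposite of Cxcr5, and the log2 fold change was -1.79 ± 0.20 (adjusted p = 0.000204). Cxcl12, which retains B cells through CXCR4, was at 550 ± 109 CPM in WT_BLM and 262 ± 41.3 CPM in KO_BLM (-1.07 ± 0.16, adjusted p = 0.000982). The survival factor BAFF (Tnfsf13b) was at 26.0, 22.7, 24.3 and 21.5 CPM in WT_BLM and at 33.8, 37.3, 33.0 and 33.4 CPM in KO_BLM, and was higher by 0.54 ± 0.09 (adjusted p = 0.00143). APRIL (Tnfsf13) was higher by 1.03 ± 0.24 (adjusted p = 0.00807), at 1.50 ± 0.365 and 3.07 ± 0.498 CPM. Ltb, which lymphocytes themselves make, was higher by 1.19 ± 0.35 (adjusted p = 0.0229), a call lost without WT_BLM replicate 1 or KO_BLM replicate 3. Ccl19 (1.61 ± 0.47, adjusted p = 0.0212) lost its call without WT_BLM replicate 1 or KO_BLM replicate 4, and Ccl21a (-0.57 ± 0.20, adjusted p = 0.0419) lost its call in 5 of the 8 leave-one-out fits.

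**Figure D5:**
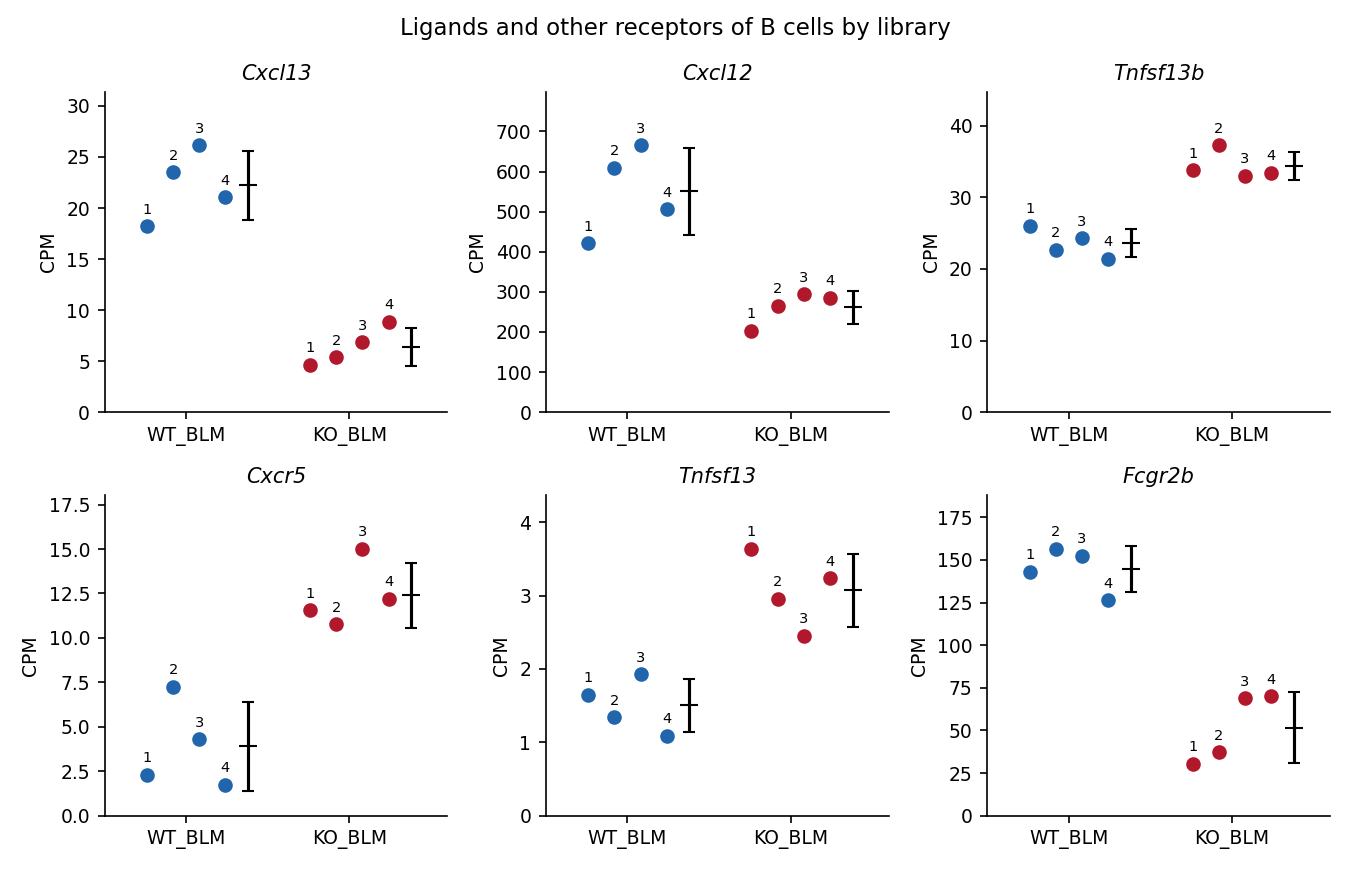
CPM (y axis, linear from 0) of Cxcl13, Cxcl12, Tnfsf13b, Cxcr5, Tnfsf13 and Fcgr2b in each library (points, numbered by replicate), with the mean and SD of each group. Cxcl13, Cxcl12 and Fcgr2b are lower in all KO_BLM libraries, and Tnfsf13b, Cxcr5 and Tnfsf13 are higher in all of them.

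Markers of other cells moved as well, where 20.7% of all tested genes were higher and 20.8% lower. Of 11 T cell genes, 10 were higher and 0 lower (median log2 fold change 1.42), with a summed level of 46.0 to 83.8 CPM in WT_BLM and 122.2 to 215.0 CPM in KO_BLM. All 8 genes of NK and cytotoxic cells were higher (median 2.84; 6.43 to 19.1 against 62.1 to 125.5 CPM). Of 9 monocyte and macrophage genes, 2 were higher and 6 lower (median -1.0), with C1qa at 425 ± 31.0 and 148 ± 59.3 CPM. Their summed level of 5680 to 6795 against 7135 to 9853 CPM was mostly that of Lyz2 (4550 ± 448.5 against 7749 ± 1210 CPM), which alveolar type 2 cells also express. Of 7 plasmacytoid dendritic cell genes, 2 were higher and 0 lower (summed 197.4 to 266.7 against 243.9 to 284.3 CPM). These 2 were Cox6a2 (log2 fold change 2.06 ± 0.25, adjusted p = 0.0003) and Smim5 (0.73 ± 0.20, adjusted p = 0.0165), and which cells their RNA came from was not tested. Siglech, the defining gene of plasmacytoid dendritic cells, was not called, at 1.50 ± 1.55 and 1.73 ± 0.643 CPM. Of 7 conventional dendritic cell genes, 3 were higher and 0 lower (summed 41.8 to 143.6 against 143.6 to 157.2 CPM). Fibroblast genes were lower in 4 of 5 (summed 7651 to 8612 against 2474 to 2878 CPM), alveolar type 2 genes higher in 5 of 5 and endothelial genes higher in 3 of 4. Of the genes that mark lymph node vessels, Glycam1 was at 0 in 3 of 4 libraries of each group and reached 1.25 CPM in KO_BLM replicate 4, and Madcam1 was at 0.277 ± 0.144 and 0.0688 ± 0.106 CPM. Both were too low to test. Of the 3 tested genes of that list, Chst4 was higher, at 4.77 ± 2.20 and 12.8 ± 2.32 CPM without overlap (log2 fold change 1.42 ± 0.29, adjusted p = 0.00405). Ccl21a was lower and the other was not called (list summed 140.0 to 238.7 against 102.8 to 155.3 CPM). Of 7 follicular dendritic and reticular genes 1 was higher and 3 were lower. Some of these counts changed when 1 library was left out. Endothelial genes higher numbered 1 without replicate 1 or 3 of WT_BLM, or without replicate 1 or 2 of KO_BLM. Conventional dendritic cell genes higher numbered 6 without WT_BLM replicate 2. Monocyte and macrophage genes higher numbered 1 when replicate 1 or 2 of WT_BLM, or 2, 3 or 4 of KO_BLM, was left out. What part any of these cells has in the members' differences was not tested.

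The genes with the pattern most like that of the 9 were ranked by the Pearson r of log2 CPM with the mean of the members' standardised values over the 8 libraries, among the 13864 other genes whose mean was 1 CPM or more. Among the first 10 were Nmi (0.995), Mppe1 (0.993), H2-Ob (0.992), Fcrl1 (0.992), Fcmr (0.991), Sp100 (0.990), Gimap9 (0.988) and Fcrla (0.988). This r includes the step between the groups. On deviations from the group means, the first 10 included Cdca5, Olfm1, H2-DMb2, Kif18b, Zcchc18, Bub1b, Evl, Tk1 and Strip2 (0.988 to 0.982). Of these 9, Zcchc18 was higher in KO_BLM, 4 were lower (Olfm1, Kif18b, Bub1b and Tk1) and 4 were not called, so genes that follow the members within groups did not all share the difference between them.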

How the data were processed

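For each library the authors deposited unnormalized counts of reads for 18824 gene symbols, and FPKM values, both from lung RNA made into libraries with a stranded, poly(A)-selecting kit, per the labels' protocols. Of tools, the submitters' processing notes list Cufflinks, DESeq, HTSeq and Trimmomatic, with no version, on mm10. Which aligner, annotation and strand option were used is not given in the sources used here. Overlapping or antisense genes may share reads. All deposited FPKM (100% within a relative tolerance of 1e-06) equalled count over column total and 1 length per gene, so they are no second measurement. Columns named PHT2_KO_BLM were matched to KO_BLM by group and replicate number in the sample titles.

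Counts were fitted over all 14746 genes that passed filterByExpr (minimum count 10, minimum total 15) with edgeR 4.0.16 in R 4.3.3, using TMM factors, a robust quasi-likelihood fit (glmQLFit) and its F test, with Benjamini-Hochberg adjustment at 0.05. A standard error is the log2 fold change divided by √F. The fit was tested on simulated counts. Libraries of a group differed by more than counting noise (chi-square over degrees of freedom 7.44 to 57.9). Within-library ratios used count + 0.5 and exact permutation tests in SciPy 1.17.1. Alternatives were no TMM (RLE factors or library totals), no low-count filter or a strict one (50 counts in 4 libraries), DESeq2 1.42.0, limma 3.58.1 with voom and quality weights or on log2(FPKM + 1) and log2(FPKM + 0.1) and with a mean of at least 1 FPKM, the replicate number as a block, and each library left out.

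The members, the gene lists and the motifs were chosen with earlier results of these data known. Named genes are the members, Slc15a3, Ptprc, up to 8 genes of smallest p per list, those at or near 0, and the 10 genes most like the members by each measure, of which some are not reported here. Btk, Ebf1, Tnfrsf13c, Cd72, Cd180, Cd3e, C1qa and Siglech were named beside these, chosen after their values were seen. So were Xbp1, Cd37, Cd24a, Ccr6, Tnfrsf13b, Tlr9, Cox6a2, Smim5 and Chst4. Coordinates are from an NCBI gene table of GRCm38, the assembly of mm10, and sequences from RefSeq. Motifs were sought on both strands.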

Additional observations from a re-analysis of the deposited data

Results flagged for a closer look

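Among the 140 groups of 4 libraries examined (70 genes, each genotype), 5 had a library far from the other 3 by Dixon's ratio of gap to range, and chance flags about 1 in 20. In KO_BLM, replicate 3 was the high one for Cd79a (76.6 CPM, the others 52.5 to 53.2), for H2-Ob (55.2 CPM, the others 35.0 to 36.2) and for Fcrla (18.5 CPM, the others 11.3 to 11.7). Ets1 was low in KO_BLM replicate 4 (229.3 CPM, the others 266.5 to 269.6). Mzb1 was high in WT_BLM replicate 3 (13.0 CPM, the others 3.05 to 3.97), and its fold of 2.58 was 4.40 without that library. Without KO_BLM replicate 3, Cd79a was 3.15-fold higher in place of 3.49-fold.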

How the results depend on the processing

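Of 161 refits of the 9 members, 160 kept the direction and the call, and the other was Cd22 under voom (0.48). A mean of at least 1 FPKM left Cr2 without a value, and ratios of Cr2 without a pseudocount had none. Without each library in turn, 9 of 9 members were called, and the genes called numbered 4494 (of 14879 tested) to 5853 (of 14878). Same-numbered libraries did not deviate together (r of -0.08 to 0.12, and 1 of 4 WT_BLM libraries was closest to its own number). This cannot show whether same-numbered libraries were handled in pairs. With the replicate block 9 of 9 members and 5702 genes were called, 7 transcription factors were higher, and no ratio could pass, since 0.125 is then the smallest exact permutation p. List counts moved by over 1.5 times as follows, and the cause was not tested. Under voom 7 receptor signalling genes and 2 transcription factors were lower. Plasma cell genes higher numbered 1 with the strict filter, voom and log2(FPKM + 1), and those lower numbered 1 with library totals and all 3 FPKM fits. Germinal centre genes higher numbered 2 with library totals, the strict filter, voom and all 3 FPKM fits, and those lower numbered 1 with library totals and both unfiltered FPKM fits. With the strict filter 2 ligands were higher. On log2(FPKM + 0.1) 5 Ms4a genes were higher, and on both unfiltered FPKM fits 3 were lower. Leaving out each library gave 3 to 7 transcription factors higher, 1 to 4 plasma cell genes higher and 1 to 3 lower, 0 to 2 germinal centre genes higher and 1 to 3 lower, 3 to 6 ligands higher and 3 to 6 signalling genes lower. Of the marker lists it gave 1 to 4 endothelial, 3 to 6 conventional dendritic, 1 to 2 monocyte and macrophage and 0 to 1 follicular dendritic and reticular genes higher, and 0 to 1 lymph node genes lower. Under voom 4 plasmacytoid dendritic cell genes were higher and 1 lower, and 2 pan-leukocyte genes lower. On log2(FPKM + 1) 1 macrophage gene was higher, with the strict filter 0 reticular genes, and 0 lymph node genes were lower with library totals and all 3 FPKM fits. The ratios past the threshold numbered 0 to 11. The log2 difference of Cd22 to Ptprc ran from -0.06 (without KO_BLM replicate 3) to 0.16 (without KO_BLM replicate 2) and was also below 0 without WT_BLM replicate 4 (-0.00). For Cr2, at 0 to 51 counts in WT_BLM, depth limits the size of the fold.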
